A study of Homo sapiens with 6 samples.

Results

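The AP-1 and immediate-early transcription factors examined here were 10 genes, chosen by name from among the 20824 genes in the expression table. They comprise the FOS family (*FOS*, *FOSB*, *FOSL1* and *FOSL2*), the JUN family (*JUN*, *JUNB* and *JUND*) and the zinc-finger factors *EGR1*, *EGR2* and *EGR3*. Levels are in RPKM, reads per kilobase of transcript scaled to library depth. Averaged over the 6 libraries, 8 of the 10 genes reached 0.5 RPKM and were tested, while *EGR2* and *EGR3* fell below that level. RNA-Seq was performed on 21NT cells, a human breast line that models ductal carcinoma in situ, transfected with pcDNA3.1 carrying *TBX3* isoform 1 (21NT TBX3iso1), *TBX3* isoform 2 (21NT TBX3iso2) or no insert (21NT EV), with 2 libraries per line. TBX3 is a T-box transcription factor, and its isoforms differ by alternative splicing. The question was which transcripts differ when either isoform is overexpressed. All 3 lines were selected in G418, were grown with serum, insulin, hydrocortisone and epidermal growth factor at 12.5 ng/mL, and were collected at 80% confluence. Each line is a pool of resistant clones, the vector drives its insert from a constitutive viral promoter, and the sources do not say that the 2 libraries of a line came from separate cultures. The p-values therefore measure only the spread between these libraries, which may be technical, and a difference between pools cannot be told apart from the effect of an isoform.

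The libraries held 43176600 to 54512400 alignments. *TBX3* itself stood at 8.38 ± 0.199 RPKM in 21NT EV, 12.3 ± 1.23 in 21NT TBX3iso1 and 16.5 ± 1.41 in 21NT TBX3iso2 (mean ± SD, n = 2 here and below). The excess over 21NT EV was 0.54 on the log2 scale for isoform 1, which was under the 1.5-fold threshold (adjusted p = 0.00378, limma), and 0.97 for isoform 2 (adjusted p = 0.000257, limma). The 8 epithelial markers summed to 2363 to 3130 RPKM per library, although basal *KRT14* did not exceed 0.0398 RPKM and *KRT5* lay between 2.73 and 6.99 RPKM. Single markers did differ between lines, *KRT5* being at 2.83 RPKM in 21NT EV, 6.64 in 21NT TBX3iso1 and 6.87 in 21NT TBX3iso2. By the test described below, 1 of the 7 tested was higher and 1 lower with each isoform, 28.6% beside 21.5% and 21.2% of all genes tested. The 9 fibroblast, endothelial and blood markers summed to 11.8 to 12.4 RPKM in 21NT EV, 9.24 to 9.81 in 21NT TBX3iso1 and 8.33 to 8.94 in 21NT TBX3iso2. Most of that sum was *COL1A1* and *PECAM1*, the latter highest in 21NT EV, whereas the blood markers *PTPRC* and *CD3E* were between 0 and 0.0299 RPKM. The part of these markers in the results below was not tested.

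AP-1 is a dimer. A FOS protein pairs with a JUN protein through a leucine zipper, and the pair binds a short palindromic DNA site, while JUN proteins can also pair with each other. FOS, FOSB, JUN, JUNB and the EGR factors are classical immediate-early genes, transcribed within minutes of a growth factor or serum signal through the ERK kinase cascade and serum response factor (SRF), without a need for new protein synthesis. FOSL1 (FRA-1) and FOSL2 (FRA-2) lack the strong transactivation domain of FOS and FOSB, rise later, and FOSL1 is well known in invasive breast cancer cells. The EGR factors bind GC-rich sites and are held in check by the NAB co-repressors.

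To set sequence beside the levels, the promoters of *EGR1*, *FOS*, *FOSB* and *JUND* are given as the 250 bases before the RefSeq transcription start (GRCh38.p14, read 5′ to 3′ on the gene's own strand). *FOS*, *FOSB* and *JUND* are shown because they passed the direct comparison of the isoforms described below, and *EGR1* as one of the SRF-regulated genes among the 10. Capitals mark motif matches. Both strands were searched for the AP-1 site TGACTCA, the cAMP response element TGACGTCA, the CArG box bound by SRF, the EGR site GCGTGGGCG and the T-box site AGGTGTGA. No motif contains another.
EGR1, chr5:138465229-138465478, plus strand: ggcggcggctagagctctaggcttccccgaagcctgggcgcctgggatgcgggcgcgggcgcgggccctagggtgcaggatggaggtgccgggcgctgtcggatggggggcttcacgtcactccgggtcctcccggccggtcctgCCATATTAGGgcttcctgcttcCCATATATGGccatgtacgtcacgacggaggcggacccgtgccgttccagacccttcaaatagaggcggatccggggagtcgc
FOS, chr14:75278578-75278827, plus strand: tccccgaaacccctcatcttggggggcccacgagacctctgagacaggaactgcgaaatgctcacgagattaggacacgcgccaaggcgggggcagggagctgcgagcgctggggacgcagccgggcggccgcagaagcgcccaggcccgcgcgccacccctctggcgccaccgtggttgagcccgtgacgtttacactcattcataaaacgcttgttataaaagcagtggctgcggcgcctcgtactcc
FOSB, chr19:45467746-45467995, plus strand: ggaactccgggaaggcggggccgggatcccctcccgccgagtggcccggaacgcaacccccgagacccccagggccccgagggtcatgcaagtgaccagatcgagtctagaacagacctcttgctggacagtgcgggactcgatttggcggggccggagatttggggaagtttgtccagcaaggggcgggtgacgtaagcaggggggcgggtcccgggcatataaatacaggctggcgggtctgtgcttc
JUND, chr19:18281623-18281872, minus strand: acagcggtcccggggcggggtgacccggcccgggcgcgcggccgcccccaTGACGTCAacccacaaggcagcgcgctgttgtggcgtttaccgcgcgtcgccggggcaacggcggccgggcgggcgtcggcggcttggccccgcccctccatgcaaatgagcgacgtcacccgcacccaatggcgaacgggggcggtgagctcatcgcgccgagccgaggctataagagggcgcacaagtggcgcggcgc
The *EGR1* window held 2 CArG boxes, at -105 to -96 and at -83 to -74 from the start. The *JUND* window held 1 cAMP response element, at -200 to -193. No searched motif was matched in the *FOS* or *FOSB* window, which says only that these letters are not in these 250 bases. Among all 35116 windows of this length, 1.16% held a CArG box, 1.65% the cAMP response element, 4.2% the AP-1 site, 0.72% the EGR site and 0.786% the T-box site. Of the 10 genes, 8 had an entry in the promoter table, in 10 windows, *FOSL1* and *EGR3* being those without. The other windows held no match except for 1 of the 3 *EGR2* windows, with a CArG box at -71 to -62.

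In 21NT EV, *FOSL1* had the highest level of the 10 genes, at 158 to 163 RPKM, followed by *FOSL2* at 71.9 to 79.5 and *JUNB* at 52.1 to 56.0. *EGR1* (26.0 to 31.4 RPKM) and *JUN* (27.6 to 28.8) overlapped and could not be ordered. *JUND* came next at 23.3 to 23.5 RPKM, then *FOS* at 16.3 to 22.4. *FOSB* was near 1 RPKM at most, and *EGR3* and *EGR2* were lower again. RPKM is a level per kilobase, so that these genes can be set side by side, although the transcript lengths the authors used are not given in the sources used here. In 21NT TBX3iso1 *FOSL1* was again highest, *JUN* and *JUNB* overlapped at 42.3 to 45.5 RPKM, and *FOSL2*, at 25.2 to 31.6, stood above *EGR1* and *JUND*, which overlapped. In 21NT TBX3iso2 *JUN* and *JUNB* overlapped at 38.0 to 48.0 RPKM, *EGR1* overlapped *JUND*, and *FOSB* overlapped *FOS*.

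**Figure D1:**
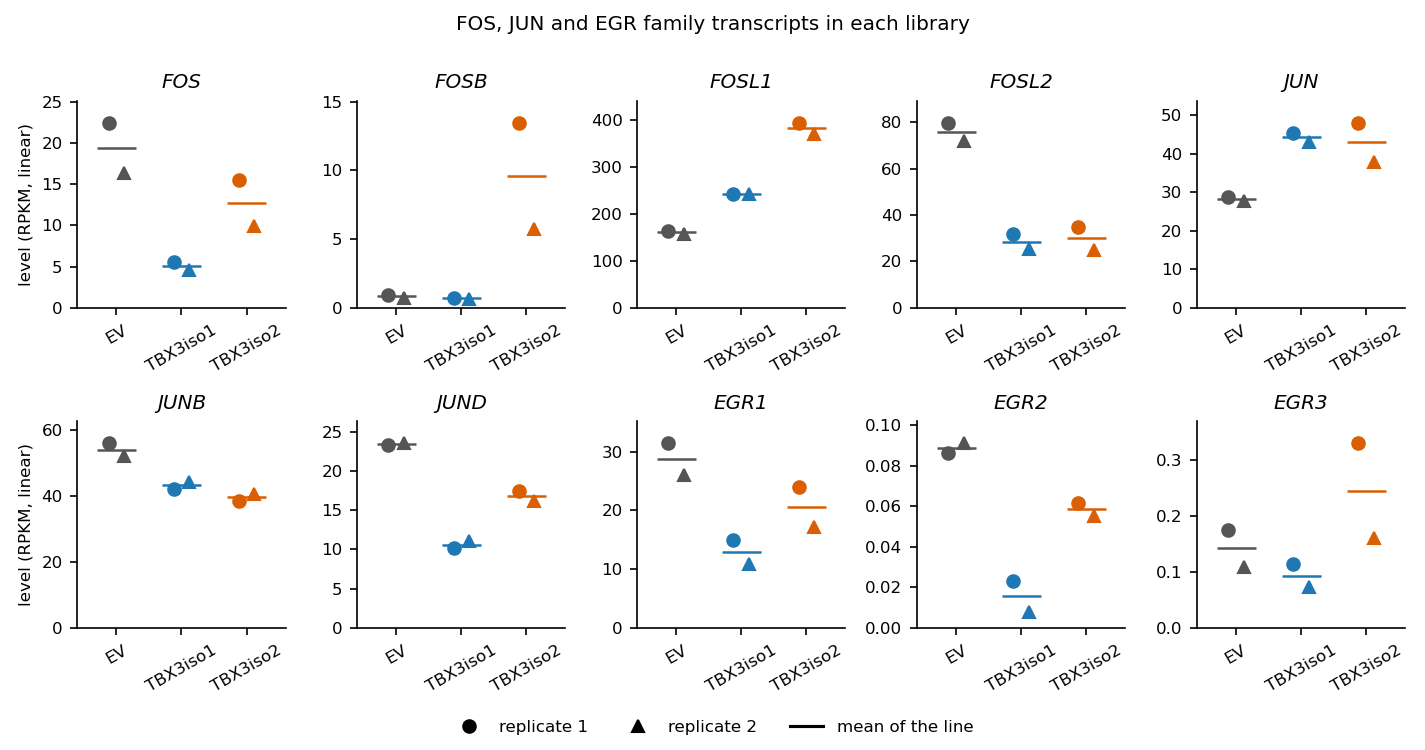
RPKM of the AP-1 and immediate-early genes in each of the 6 libraries, with a point per library and a bar at the mean of each line. *FOSB* stands apart in both 21NT TBX3iso2 libraries (13.4 and 5.76 RPKM), and *FOS* is lowest in 21NT TBX3iso1.

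With isoform 1, 6 of the 8 tested genes passed the test against 21NT EV (adjusted p under 0.05 and a change over 1.5-fold), 2 higher and 4 lower. Over all genes tested, 21.5% passed, 7.46% higher and 14.1% lower. The split over all genes was 955 higher and 1802 lower here, 1259 and 1313 after quantile normalization, and 1145 and 1551 after median-ratio scaling. With isoform 2, 4 of the 8 passed, 3 higher and 1 lower, against 21.2% of all genes tested, 8.94% higher and 12.3% lower. Since both comparisons share the 21NT EV libraries, each set of values is given on its own. The 2 libraries of either line lay outside the range of 21NT EV for 7 of the 8 genes with isoform 1 (78.4% of all genes tested) and for 8 of the 8 with isoform 2 (74.7%).

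**Figure D2:**
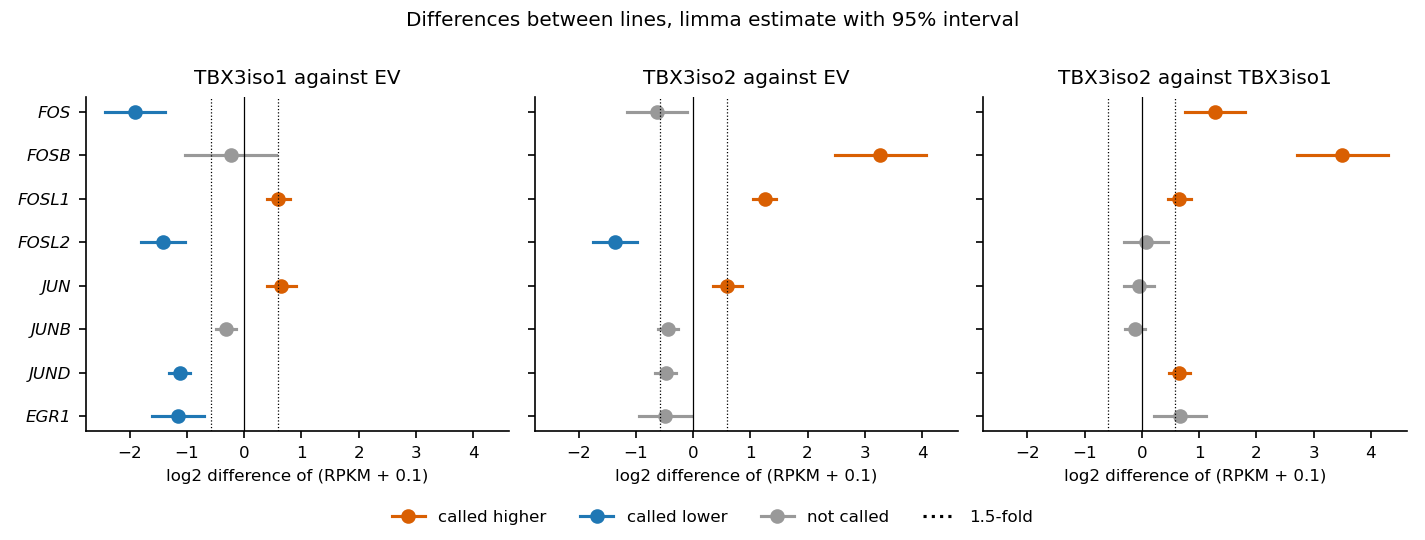
Log2 differences of the tested genes in the 3 comparisons, on the log2(RPKM + 0.1) scale, with 95% confidence intervals from limma and lines at a 1.5-fold change. *FOSB* is far to the right only where 21NT TBX3iso2 is compared, at 3.27 against 21NT EV and 3.50 against 21NT TBX3iso1.

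*FOSB*, an activating FOS protein, had the widest contrast of the 8 tested genes. Its levels were 0.928 and 0.729 RPKM in 21NT EV, 0.733 and 0.641 in 21NT TBX3iso1, and 13.4 and 5.76 in 21NT TBX3iso2. The first 2 lines overlapped, and both isoform 2 libraries were above them. On the log2 scale, however, those 2 isoform 2 libraries differed from each other by more than any other replicate pair of the 8 genes. *FOSB* rose by 3.27 on the log2 scale with isoform 2 (SE 0.341, adjusted p = 0.000282, limma), and 0.258% of genes tested had a larger difference in either direction. Within replicate number, the differences were 3.72 and 2.82. The rise was 2.67 without 21NT TBX3iso2 replicate 1 and 3.87 without replicate 2 of that line, and passed in both cases. With isoform 1 the difference was -0.23 (95% interval -1.03 to 0.56, adjusted p = 0.603, limma). *FOSB* lies at chr19:45971253-45978437 on the plus strand (GRCh37) and overlaps *ERCC1*, a DNA repair gene, which was at 18.9 RPKM in 21NT EV, 21.3 in 21NT TBX3iso1 and 29.4 in 21NT TBX3iso2 (0.63 higher than 21NT EV, adjusted p = 0.00106, limma). In bulk RNA, fewer cells expressing a gene and less RNA per cell cannot be told apart. Whether the counting used strand is not given in the sources used here. The table also gives no split between the splice forms of *FOSB*.

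*FOS*, the first-described partner of JUN, fell with isoform 1. The libraries held 22.4 and 16.3 RPKM in 21NT EV, 5.56 and 4.56 in 21NT TBX3iso1, and 15.5 and 9.87 in 21NT TBX3iso2. The 3 lines did not overlap, with 21NT TBX3iso1 lowest and 21NT TBX3iso2 between. The fall with isoform 1 was -1.91 on the log2 scale (SE 0.226, adjusted p = 0.000524, limma), larger in size than that of all but 1.65% of genes tested. With isoform 2 the difference was -0.62 and missed the threshold (adjusted p = 0.0552, limma). Fitted with the replicate number as a block, it passed (adjusted p = 0.000626), and over the alternatives the adjusted p ran from 0.000626 to 0.312. Without 21NT TBX3iso2 replicate 1 the difference was -0.95 and passed. *FOS* lies at chr14:75745529-75748933 on the plus strand.

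*FOSL1* rose with both isoforms. Its levels were 163 and 158 RPKM in 21NT EV, 242 and 242 in 21NT TBX3iso1, and 393 and 371 in 21NT TBX3iso2, so that the lines were ordered without overlap. The log2 rise was 0.60 with isoform 1 (SE 0.0859, adjusted p = 0.00129, limma) and 1.25 with isoform 2 (SE 0.0859, adjusted p = 4.73e-05, limma). The first lies just over the 1.5-fold threshold, at a log2 value of 0.58, and was 0.46 after quantile normalization and 0.57 without 21NT EV replicate 2, both under it. *FOSL1* lies at chr11:65659520-65668044 on the minus strand.

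*FOSL2* moved the other way. It stood at 79.5 and 71.9 RPKM in 21NT EV, 31.6 and 25.2 in 21NT TBX3iso1, and 34.8 and 25.0 in 21NT TBX3iso2. Both isoform lines lay far below 21NT EV and overlapped each other. The fall was -1.42 with isoform 1 (SE 0.165, adjusted p = 0.000487, limma) and -1.36 with isoform 2 (SE 0.165, adjusted p = 0.000569, limma). *FOSL2* lies at chr2:28615315-28640184 on the plus strand. It overlaps the annotated *FOSL2-AS1* and another annotated gene without a symbol, for which no levels are given under these names.

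The summed FOS-family level was 256 ± 13.2 RPKM in 21NT EV, 276 ± 5.39 in 21NT TBX3iso1 and 434 ± 31.9 in 21NT TBX3iso2. *FOSL1* supplied 62.6% ± 1.91 of that sum in 21NT EV, 87.7% ± 1.68 in 21NT TBX3iso1 and 88.1% ± 2.88 in 21NT TBX3iso2. The share of *FOSL2* was 29.5% ± 0.592, 10.3% ± 1.44 and 6.84% ± 1.09 in the same order. *FOS* held 7.53% ± 1.28, 1.83% ± 0.222 and 2.90% ± 0.704. *FOSB* held 0.322% ± 0.0383, 0.248% ± 0.0187 and 2.17% ± 1.09. These shares describe transcripts, not proteins, and were not tested.

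**Figure D3:**
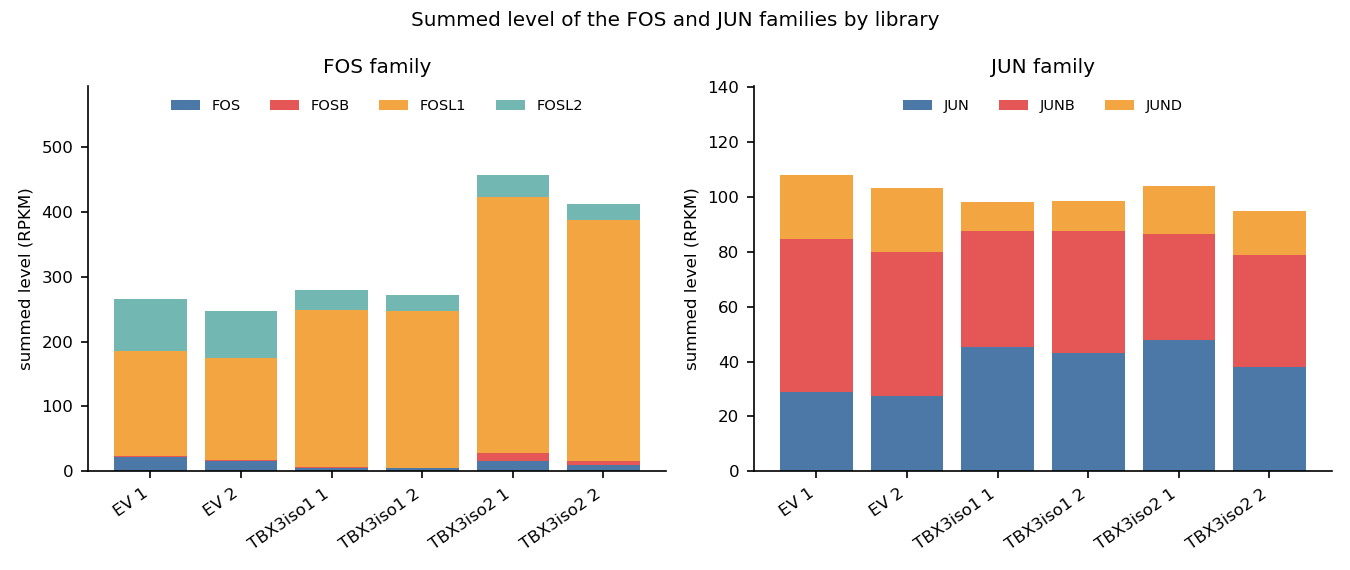
RPKM of the FOS-family genes (left) and JUN-family genes (right), stacked from 0. As means of the lines, *FOSL1* makes up 62.6% of the FOS-family sum in 21NT EV and 88.1% in 21NT TBX3iso2. The mean JUN-family sum lies between 98.2 and 106 RPKM in the 3 lines.

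Among the JUN proteins, which pair with the FOS family, *JUN* rose with both isoforms. Its levels were 28.8 and 27.6 RPKM in 21NT EV, 45.5 and 43.1 in 21NT TBX3iso1, and 48.0 and 38.0 in 21NT TBX3iso2, and all 4 isoform libraries were above 21NT EV. The rise was 0.65 with isoform 1 (SE 0.111, adjusted p = 0.00274, limma) and 0.60 with isoform 2 (SE 0.111, adjusted p = 0.00379, limma). The isoform 2 value lies near the fold threshold and was under it at 0.58 with a pseudocount of 1, 0.52 after quantile normalization, 0.57 without 21NT EV replicate 2 and 0.43 without 21NT TBX3iso2 replicate 1. In a linear model without moderated variances both rises missed the threshold (adjusted p = 0.0657 with isoform 1 and 0.0726 with isoform 2). *JUN* lies at chr1:59242517-59249720 on the minus strand.

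*JUND*, usually expressed at a steady level in resting and growing cells, fell with isoform 1. It stood at 23.3 and 23.5 RPKM in 21NT EV, 10.2 and 11.02 in 21NT TBX3iso1, and 17.5 and 16.1 in 21NT TBX3iso2, with no overlap between lines. The difference was -1.13 with isoform 1 (SE 0.0784, adjusted p = 4.69e-05, limma). With isoform 2 it was -0.48 (adjusted p = 0.00227, limma), under the 1.5-fold threshold. *JUND* lies at chr19:18390504-18392432 on the minus strand.

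*JUNB*, often an antagonist of JUN, had small differences. Its levels were 56.0 and 52.1 RPKM in 21NT EV, 42.3 and 44.4 in 21NT TBX3iso1, and 38.7 and 40.8 in 21NT TBX3iso2. The differences were -0.32 with isoform 1 (adjusted p = 0.0113, limma) and -0.44 with isoform 2 (adjusted p = 0.0026, limma), both under 1.5-fold. *JUNB* lies at chr19:12902300-12904129 on the plus strand and overlaps *HOOK2*, which was at 12.9, 8.89 and 9.44 RPKM in the 3 lines in the same order.

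The summed JUN-family level was 106 ± 3.36 RPKM in 21NT EV, 98.2 ± 0.326 in 21NT TBX3iso1 and 99.5 ± 6.49 in 21NT TBX3iso2. The share of *JUN* was 26.7% ± 0.0882, 45.1% ± 1.88 and 43.1% ± 4.29, and that of *JUNB* was 51.2% ± 0.958, 44.1% ± 1.36 and 40.1% ± 4.13. *JUND* held 22.2% ± 0.870, 10.8% ± 0.521 and 16.9% ± 0.158. In 21NT TBX3iso1, *JUN* and *JUNB* levels overlapped, as they did in 21NT TBX3iso2, whereas *JUNB* was well above *JUN* in 21NT EV.

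*EGR1*, a growth-factor-induced zinc-finger factor, fell with isoform 1. It stood at 31.4 and 26.0 RPKM in 21NT EV, 14.9 and 10.8 in 21NT TBX3iso1, and 23.9 and 17.2 in 21NT TBX3iso2. No 2 lines overlapped, and 21NT TBX3iso1 was lowest. The difference was -1.16 with isoform 1 (SE 0.195, adjusted p = 0.00254, limma) and -0.49 with isoform 2 (adjusted p = 0.0742, limma). The latter was under 1.5-fold, with an adjusted p of 0.000674 when the replicate number was a block, and without 21NT TBX3iso2 replicate 1 it was -0.73 and passed. In a linear model without moderated variances the isoform 1 difference missed the threshold (adjusted p = 0.0809). *EGR1* lies at chr5:137801168-137804992 on the plus strand.

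*EGR2* and *EGR3* were near the floor. Each overlaps an annotated gene without a symbol, for which no level is given under that name. *EGR2* (chr10:64571756-64578927, minus strand) stood at 0.0862 and 0.0911 RPKM in 21NT EV, 0.0233 and 0.00801 in 21NT TBX3iso1, and 0.0618 and 0.0553 in 21NT TBX3iso2. At the longest annotated transcript these correspond to roughly 1.27 to 14.8 reads per library. *EGR3* stood at 0.176 and 0.108 RPKM in 21NT EV, 0.114 and 0.0728 in 21NT TBX3iso1, and 0.329 and 0.161 in 21NT TBX3iso2, or roughly 16.5 to 75.7 reads. Without the filter on low values, *EGR2* differed by -0.71 with isoform 1 (adjusted p = 0.00771, limma), on values below the pseudocount of 0.1, and *EGR3* passed in none of the 3 comparisons.

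The direct comparison sets the isoform lines against each other, so that a difference between the isoforms cannot be told apart from one between the pools. Of the 8 tested genes, 4 passed between 21NT TBX3iso2 and 21NT TBX3iso1, all higher with isoform 2, against 6.29% of all genes tested (444 higher, 3.47%, and 361 lower, 2.82%). After quantile normalization the split over all genes was 351 and 435, and after median-ratio scaling 344 and 447. The libraries did not overlap for 6 of the 8 (53.5% of all genes tested). *FOSB* was higher by 3.50 (SE 0.341, adjusted p = 0.00109, limma), a difference exceeded in size by 0.0312% of genes. *FOS* was higher by 1.28 (SE 0.226, adjusted p = 0.0106, limma), *FOSL1* by 0.66 (adjusted p = 0.00331) and *JUND* by 0.65 (adjusted p = 0.00258). In a linear model without moderated variances *FOSL1* still passed, while *FOS* (adjusted p = 0.161), *FOSB* (0.0774) and *JUND* (0.0529) did not. *EGR1* was 0.67 higher and missed the threshold (adjusted p = 0.0589, limma), and passed with the replicate number as a block (adjusted p = 0.000634). It also passed without 21NT TBX3iso1 replicate 1 (0.90) and without 21NT TBX3iso2 replicate 2 (0.91), and over the alternatives its adjusted p ran from 0.000634 to 0.293. The differences that did not pass were 0.06 for *FOSL2* (95% interval -0.32 to 0.45), -0.05 for *JUN* (-0.31 to 0.21) and -0.12 for *JUNB* (-0.30 to 0.05).

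Some of these genes varied more between the 2 libraries of a line than most genes did. Ranked by the spread left within lines, *FOSB* stood at the 99th percentile of genes tested, *FOS* at 97.2, *EGR1* at 95.5 and *FOSL2* at 92.4, while *FOSL1* stood at 7.2, *JUNB* at 19.5 and *JUND* at 21.8. In each of *FOS*, *FOSB*, *FOSL1*, *FOSL2*, *JUN* and *EGR1*, replicate 2 was below replicate 1 in all 3 lines, 6 of the 8 tested genes, against 26.7% of all genes tested. For *FOS* the log2 difference between replicates was -0.45 in 21NT EV, -0.28 in 21NT TBX3iso1 and -0.65 in 21NT TBX3iso2, and for *EGR1* it was -0.27, -0.46 and -0.47. For *FOSB* it was -0.31, -0.17 and -1.21, and for *FOSL1*, which counts among the 6, only -0.04, -0.0008 and -0.08. The same order was shown by 4 of 6 genes for SRF and its partners, 6 of 13 ERK feedback genes, 9 of 25 other immediate-early genes, 5 of 16 genes with AP-1 sites, 4 of 18 MAP kinase genes, 2 of 10 partners and 1 of 10 heat shock genes. What the replicate numbers share is not given in the sources used here.

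**Figure D4:**
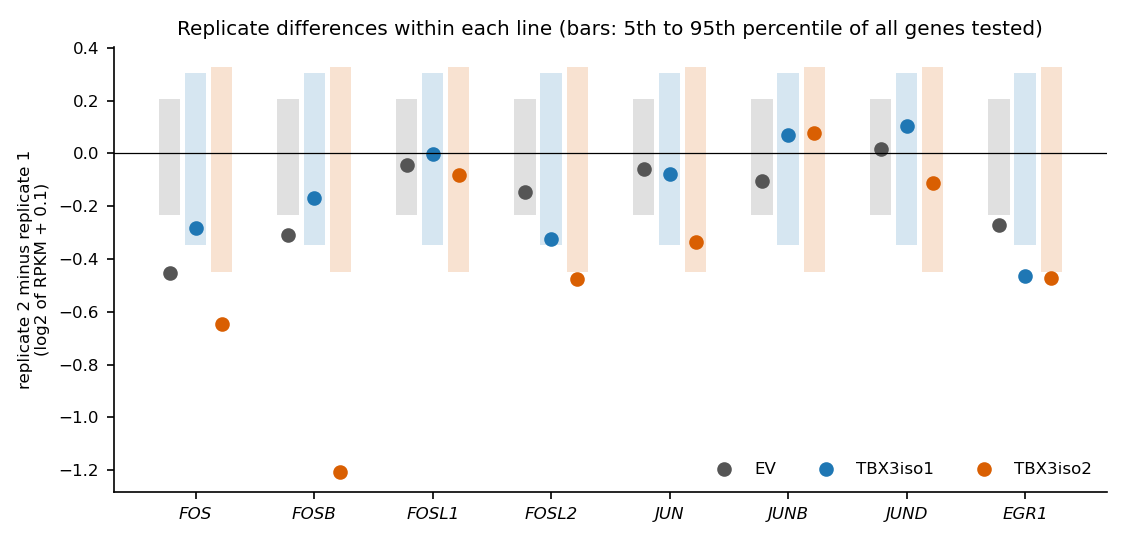
Replicate 2 minus replicate 1 on the log2(RPKM + 0.1) scale for each tested gene in each line (points), with bars for the 5th to 95th percentile over all genes tested in that line. *FOSB* in 21NT TBX3iso2 is farthest out, at -1.21, and the points of *FOS* lie below 0 in all 3 lines.

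The proteins that pair with FOS and JUN, 12 listed ATF, BATF, JDP and MAF genes, had 10 tested. This list and those below were chosen with earlier results of these data known, so that their shares are descriptions and not tests. Against 21NT EV, 0 were higher and 2 lower with isoform 1, and 1 was higher and 3 lower with isoform 2. That is 20% and 40% of the tested partners, beside 21.5% and 21.2% of all genes tested, so that the isoform 1 count was at the background. The median difference was -0.20 and -0.22. *ATF3*, a stress-induced partner of JUN, stood at 1.97 and 2.17 RPKM in 21NT EV, 2.64 and 2.84 in 21NT TBX3iso1, and 14.5 and 7.46 in 21NT TBX3iso2. It rose by 2.28 with isoform 2 (SE 0.263, adjusted p = 0.000446, limma), and was 1.89 above 21NT TBX3iso1 (adjusted p = 0.00443, limma). *JDP2*, a repressor that binds AP-1 sites, fell by 0.98 with isoform 1 and by 1.10 with isoform 2, from 3.47 RPKM to 1.71 and 1.57. *ATF7* fell with isoform 1 (-0.68, SE 0.196, adjusted p = 0.0252, limma) and with isoform 2 (-0.61, SE 0.196, adjusted p = 0.0368, limma). Its replicate spread was at the 94.8th percentile of genes tested, with 4.16 and 2.64 RPKM in the 21NT TBX3iso2 libraries. With a pseudocount of 1, and also after quantile normalization, only 1 partner passed with isoform 1. Between the isoforms 1 partner was higher and 1 lower, 20% of those tested beside 6.29% of all genes tested. Of the 2 tested NAB co-repressors of the EGR proteins, *NAB1* rose by 0.64 with isoform 2 (0.30 with isoform 1, not past the threshold), and neither passed with isoform 1.

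Among 28 other immediate-early genes, 25 were tested. With isoform 1, 4 were higher and 3 lower, and with isoform 2, 7 were higher and 2 lower, which is 28% and 36% of those tested beside 21.5% and 21.2% of all genes. The median difference was -0.14 with isoform 1 and 0.34 with isoform 2, beside -0.05 and -0.00 over all genes tested. *NR4A1*, an orphan nuclear receptor, stood at 0.562 and 0.545 RPKM in 21NT EV, 0.317 and 0.428 in 21NT TBX3iso1, and 3.58 and 1.87 in 21NT TBX3iso2. It was 2.04 higher with isoform 2 (adjusted p = 0.00105, limma). With means of 0.554 and 0.373 RPKM in the other lines, *NR4A1* passed the 0.5 RPKM filter only through 21NT TBX3iso2 (2.72 RPKM). Its being tested therefore depended on the rise. *DUSP2*, a MAP kinase phosphatase, rose from 0.137 RPKM by 2.73 with isoform 1 and by 1.69 with isoform 2. It passed the 0.5 RPKM filter only through the isoform lines (1.47 and 0.665 RPKM), so that its being tested depended on the rise. *ZFP36*, which promotes decay of unstable mRNAs, fell by 1.02 with isoform 1, from 32.3 to 15.9 RPKM, and its difference of -0.51 with isoform 2 was under 1.5-fold. *KLF10* rose with both isoforms (0.82 and 0.91), and *SGK1* fell with both (-0.68 and -1.33). *TRIB1* fell by 0.69 with isoform 1 (-0.53 with isoform 2, under 1.5-fold), and *PLK2* fell by 0.70 with isoform 2 (-0.56 with isoform 1, under 1.5-fold). In the direct comparison 5 of the 25 were higher and 2 lower with isoform 2, 28% of those tested beside 6.29% of all genes tested. The higher genes included *DUSP1*, a MAP kinase phosphatase singled out after its values were seen, which was 0.66 higher (adjusted p = 0.0286, limma).

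**Figure D5:**
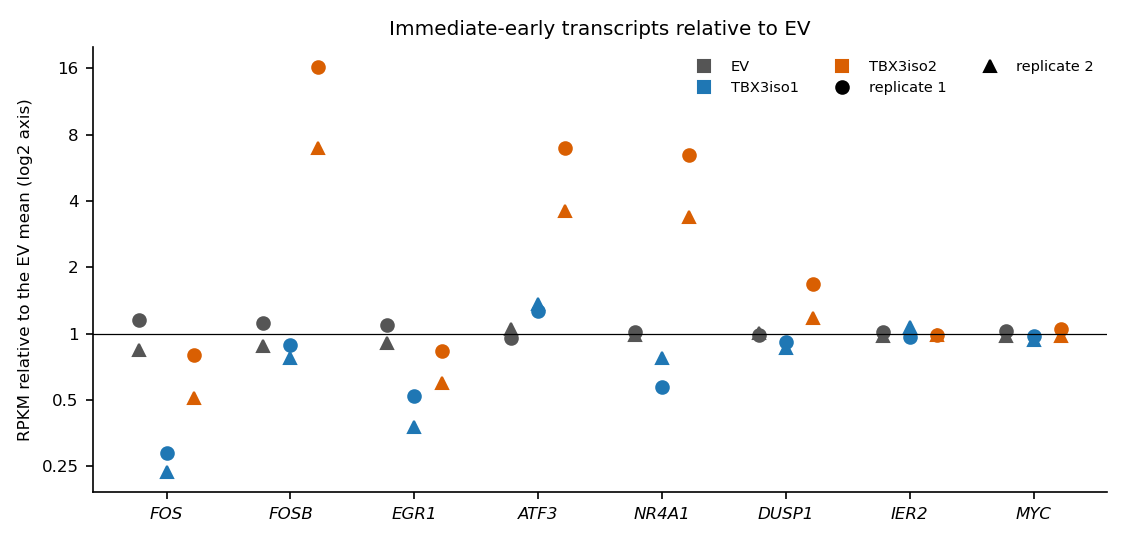
RPKM of *FOS*, *FOSB*, *EGR1*, *ATF3*, *NR4A1*, *DUSP1*, *IER2* and *MYC* in each library relative to the mean of 21NT EV, on a log axis, with a point per library, the genes being chosen after their values were seen. *FOSB*, *ATF3* and *NR4A1* are above 21NT EV in both 21NT TBX3iso2 libraries, while *IER2* and *MYC* lie close to 1 in all lines and passed no test.

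Of 13 feedback regulators and late targets of ERK, 1 was higher and 2 lower with isoform 1, and 3 higher and 3 lower with isoform 2. These are 23.1% and 46.2% of the list, the first close to the 21.5% of all genes tested and the second beside 21.2%, with medians of 0.03 and 0.22. The ERK phosphatase *DUSP7* rose by 0.93 and 0.98 with isoforms 1 and 2, whereas *DUSP4*, which also dephosphorylates ERK, fell by 1.32 and 1.37. *DUSP6* fell by 0.84 and *SPRY4*, an inhibitor of receptor signalling to ERK, rose by 0.70 with isoform 2, where the isoform 1 differences of -0.47 and 0.58 were under 1.5-fold. *SPRED3* fell with both isoforms (-0.76 and -0.69), from 0.763 RPKM to 0.416 and 0.436, and passed the 0.5 RPKM filter only through 21NT EV. Of 6 tested genes for SRF, its ternary complex partners and the MRTF co-activators, *MKL2* alone passed, falling by 0.89 and 0.72 with isoforms 1 and 2. That is 16.7% of the list in each comparison, beside 21.5% and 21.2% of all genes tested. Of 18 MAP kinases and their activators, 4 were lower with isoform 1 and 2 with isoform 2, and none was higher in either comparison. These counts, 22.2% and 11.1% of the list, were near or below the shares over all genes, and the medians were -0.16 and -0.10. *MAP2K5* (-0.59 and -0.69) and *MAPK3* (-0.72 and -0.69) fell with both isoforms. *MAP2K6* (-0.94) and *MAPK11* (-0.81), of the p38 branch, fell with isoform 1, while their isoform 2 differences of -0.41 and -0.18 did not pass. Between the isoforms 1 of the MAP kinase genes was higher (5.56% of the list, beside 6.29% of all genes tested), and none of the ERK feedback or SRF genes passed.

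Of 20 genes with known AP-1 sites, 16 were tested, including *FOSL1* itself. With isoform 1, 8 were higher and 2 lower, and with isoform 2 the counts were again 8 and 2. *FOSL1* is among the rises in both. That is 62.5% of those tested in each comparison, beside 21.5% and 21.2% of all genes tested. The list was chosen with earlier results of these data known, and the authors had already reported *PLAU* as raised with TBX3. The share therefore describes these genes and is not a test of AP-1 targets. The median difference was 0.58 with isoform 1 and 0.44 with isoform 2, beside -0.05 and -0.00 over all genes tested. *PLAU*, the urokinase plasminogen activator, rose by 1.94 with isoform 1 and by 1.89 with isoform 2. *IVL*, a keratinocyte differentiation protein, rose by 2.24 with isoform 1, and its difference of -0.45 with isoform 2 did not pass. It stood at 0.316 RPKM in 21NT EV and 0.211 in 21NT TBX3iso2, and passed the 0.5 RPKM filter only through 21NT TBX3iso1 (1.86 RPKM). Its place among the rises with isoform 1 thus depended on that rise. *CXCL8*, which encodes interleukin 8, fell with isoform 1 (16.5 to 7.24 RPKM, -1.18) and, a value singled out after it was seen, rose to 59.3 RPKM with isoform 2 (1.83, adjusted p = 8.53e-05, limma). *HMOX1* fell with isoform 1 (-0.60, against -0.44 with isoform 2, under 1.5-fold). *SPP1* (-0.99) and *VEGFA* (-0.75) fell with isoform 2, where the isoform 1 differences of 0.53 and -0.33 were under 1.5-fold. In the direct comparison 3 of the 16 were higher and 4 lower with isoform 2, 43.8% of those tested beside 6.29% of all genes tested.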

How the data were processed

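RNA from 3 21NT lines, 2 libraries each, had been sequenced by the authors as stranded mRNA libraries (paired 51-base reads) and aligned to hg19 with TopHat, allowing up to 10 alignments per read. The deposited table gives RPKM values per gene, made by the authors in Partek Genomics Suite; versions and annotation are not given in the sources used here. Columns were assigned to lines from the labels.

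Values were taken as log2(RPKM + 0.1), so that fold changes of low genes are understated. Genes with a mean under 0.5 RPKM were left out, which kept 12805 of 20824. All 3 lines entered a single limma fit (limma 3.58.1, R 4.3.3, trended empirical Bayes), with Benjamini-Hochberg adjustment over all genes tested. A gene passed at an adjusted p under 0.05 and a change over 1.5-fold. With 2 libraries per line, an exact permutation test cannot reach p = 0.05. The fit was tested on simulated data. From each list, the passing genes with the 2 largest rises and 2 largest falls against 21NT EV, in libraries that did not overlap it, were named, and others are marked as chosen after their values were seen. A few genes that this rule, or the likeness over libraries, would name are not reported here. The members and lists were chosen with earlier results of these data known. Alternatives were the pseudocount, filter, normalization, fit, replicate block and each library left out.

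The labels number the replicates alike in each line. Over genes, replicate differences of the lines correlated (r = 0.22 for 21NT EV with 21NT TBX3iso1, 0.114 with 21NT TBX3iso2 and 0.499 between the isoform lines). The main fit did not pair the libraries, and the replicate number entered as a block only as an alternative. Promoters came from RefSeq on GRCh38.p14, and gene positions from GENCODE on GRCh37. Precision is limited by read depth, which RPKM values do not carry, and by the number of libraries.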

Additional observations from a re-analysis of the deposited data

Results flagged for a closer look

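For 4 of the tested genes the level differed between the 2 isoform lines, by the direct test (limma, adjusted over all genes tested), beside 6.29% of all genes tested. Each line is a pool of clones, and *TBX3* stood at 12.3 RPKM in 21NT TBX3iso1 and 16.5 in 21NT TBX3iso2. Isoform, pool and *TBX3* level therefore cannot be told apart. Without moderated variances 1 of the 4, *FOSL1*, still passed, and *FOS* (adjusted p = 0.161), *FOSB* (0.0774) and *JUND* (0.0529) did not. The difference was 3.50 on the log2 scale for *FOSB*, with both 21NT TBX3iso2 libraries above both 21NT TBX3iso1 libraries. It was 1.28 for *FOS*, 0.66 for *FOSL1* and 0.65 for *JUND*, again with 2 of 2 libraries of isoform 2 above 2 of 2 of isoform 1. Against 21NT EV, *FOSL1* rose in both lines, whereas *FOS* and *JUND* fell with isoform 1. With isoform 2 both were also lower but did not pass, *FOS* at -0.62 (adjusted p = 0.0552, limma) and *JUND* at -0.48 (adjusted p = 0.00227, limma), the latter being under 1.5-fold.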

How the results depend on the processing

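The 24 tests of the members (8 genes in 3 comparisons) were recomputed under each alternative, giving 360 values, of which 330 kept direction and side of the threshold, 13 lost and 13 gained significance, and 4 turned direction. The 4 were all small differences: *FOSB* with isoform 1 (0.014 after quantile normalization), *FOSL2* between the isoforms (-0.10 without 21NT TBX3iso1 replicate 2 and -0.17 without 21NT TBX3iso2 replicate 1, in a leave-one-out range of -0.17 to 0.30) and *JUN* between the isoforms (0.12 without 21NT TBX3iso2 replicate 2, in a range of -0.22 to 0.12). The cause was not tested. Over all genes, the counts passing with isoform 1, with isoform 2 and between the isoforms were 5733, 5830 and 1891 with no fold threshold. With a pseudocount of 1 they were 1812 with isoform 1 and 419 between the isoforms, and with a filter at 2 RPKM 504 between the isoforms. Without moderated variances 199 genes, 1 of them a member, passed between the isoforms. Leaving out 1 library at a time, with the lone library assumed to vary like the others, gave 5 to 6, 3 to 5 and 4 to 5 members and 2295 to 3068, 2304 to 3168 and 664 to 919 genes in the 3 comparisons. With the replicate number as a block, 6, 5 and 5 members passed instead of 6, 4 and 4. The calls gained were *FOS* with isoform 2 and *EGR1* between the isoforms, and the block changed no other member's call. Without moderated variances *JUN* (adjusted p = 0.0657 with isoform 1 and 0.0726 with isoform 2), *EGR1* with isoform 1 (0.0809), and, between the isoforms, *FOS* (0.161), *FOSB* (0.0774) and *JUND* (0.0529) missed the threshold, and *FOS* between the isoforms also missed it without the low filter (0.0702).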

Other observations

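Of 10 heat shock genes, all tested, 1 was higher and 1 lower with isoform 1, and 3 were higher and 1 lower with isoform 2. These are 20% and 40% of the list beside 21.5% and 21.2% of all genes tested, the first at the background, with medians of 0.22 and 0.44. *HSPE1*, the mitochondrial co-chaperonin, rose from 103 RPKM by 1.02 on the log2 scale with either isoform, and its partner *HSPD1* rose by 0.83 with isoform 2 (0.58 with isoform 1, just under 1.5-fold). *HSPB1*, a small cytosolic chaperone, fell by 0.79 with isoform 1 and by 0.62 with isoform 2.

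For members that passed against 21NT EV, the 3 genes with the highest Pearson r over the 6 libraries, which share the 3 lines, were *RNF214* (0.999), *MGLL* and *MAP2* for *FOS*; *HMMR* (0.996), *SMURF2* and *CORO1C* for *FOSB*; *NLN* (0.999), *VRK2* and *PFKP* for *FOSL1*. For *JUN* they were *PIP5K1A* (0.999), *KCNQ5* and *CAB39*, for *JUND* *SYNGR3* (0.999), *DCAF6* and *LOC100128398*, and for *EGR1* *TOB2* (0.998), *NUMB* and *ARHGEF17*. With 6 points in 3 lines, such values describe these libraries only.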
